A study of Mus musculus with 12 samples.

Results

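The notochord and nucleus pulposus identity genes comprise 10 genes, T, Krt8, Krt18, Krt19, Cd24a, Foxa1, Foxa2, Shh, Cdh2 and Lgals3, chosen by symbol from the 32285 genes of the deposited count table. All 10 were found and all 10 had enough reads to be tested. The nucleus pulposus, which fills the centre of each intervertebral disc, was dissected from the tails of 12-month-old mice of a C57BL/6-129/SvEv background and sequenced as bulk tissue, with 1 library per mouse. The 6 Opa1cKO mice had lost Opa1, which fuses inner mitochondrial membranes and shapes their folds, by AcanCre at 3 months of age, and were followed for 9 further months. The 6 WT mice were the controls, and tamoxifen at 100 mg/kg on 3 days was given to both genotypes. AcanCre acts in cells that express aggrecan, which are found in the disc and in cartilage, so the deletion is not limited to the nucleus pulposus. The comparison asks how loss of Opa1 in the adult disc relates to the transcripts by which nucleus pulposus cells are recognised.

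Cells of the mouse nucleus pulposus descend from the embryonic notochord, a rod of cells that patterns the neural tube and the vertebral column. The notochord is specified by the T-box factor T (brachyury) and the forkhead factors Foxa1 and Foxa2, and it secretes Sonic hedgehog (Shh), which signals through the receptor Ptch1 and the Gli factors. Its descendants keep several of these transcripts in the adult disc, together with keratins of simple epithelia (Krt8, Krt18, Krt19), the surface glycoprotein Cd24a, the cell adhesion molecule N-cadherin (Cdh2) and the sugar-binding protein galectin-3 (Lgals3). Keratin filaments are built from pairs of 1 type II chain, such as Krt8, and 1 type I chain, such as Krt18 or Krt19.

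The promoters of T and Foxa2 are shown because T is the gene to which the others are compared within libraries and Foxa2 had the largest difference in size. They are the 250 bases upstream of the RefSeq start (GRCm38.p6; for Foxa2 the first of 3 starts), 5′ to 3′ on the gene's strand, with capitals for the GC box (GGGCGG or CCGCCC) and the CCAAT box (CCAAT or ATTGG). In T the first GC box overlaps a CCAAT box.
T, chr17:8434173-8434422, plus strand: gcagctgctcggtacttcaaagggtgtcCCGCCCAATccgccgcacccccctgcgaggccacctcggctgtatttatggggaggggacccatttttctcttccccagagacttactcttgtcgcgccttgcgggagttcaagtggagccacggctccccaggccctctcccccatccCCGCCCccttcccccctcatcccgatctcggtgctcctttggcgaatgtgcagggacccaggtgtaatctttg
Foxa2, chr2:148046970-148047219, minus strand: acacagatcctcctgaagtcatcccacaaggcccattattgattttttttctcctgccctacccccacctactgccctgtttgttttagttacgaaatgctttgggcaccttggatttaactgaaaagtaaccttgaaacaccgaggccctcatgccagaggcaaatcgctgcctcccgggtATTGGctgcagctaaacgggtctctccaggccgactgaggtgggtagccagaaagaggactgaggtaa
Windows were read for 6 of the 10 genes, T, Foxa1, Foxa2, Lgals3, Krt8 and Krt18. Cdh2 was not among them, so the motif counts do not cover it. Whether the genes left out have entries was not tested. Among 32851 promoter windows of that length, on both strands, the GC box was present in 32.7% and CCAAT in 33.8%, and each in 4 of the 6 genes over all their windows. The T-box half-site TCACACCT, present in 1.12% of windows, was in none of the 6, and the forkhead motif TGTTTAC, in 3.17%, was in Foxa1. These are matches of letters and say nothing of binding.

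T, Cd24a, Krt8 and Krt19, genes by which the tissue is recognised, had high levels, given below. Other genes of the same 10 were low, with Foxa2, Foxa1 and Shh at 13.1, 9.91 and 1.10 TPM on average in WT. The genes were chosen for this tissue, so their levels do not test its label. Markers of neighbouring cells were also read. The sum of 9 annulus and fibroblast markers was 1303 to 1936 CPM in WT and 1551 to 2468 CPM in Opa1cKO. Fmod (mean 1405 CPM in WT and 1628 in Opa1cKO) and Col1a1 (236 and 339 CPM) made up most of it. Other members were low, with Col3a1 at 1.46 and 2.07 CPM and Pdgfra at 0.222 and 0.349 CPM. B cell, erythroid and adipocyte markers summed to at most 2.41 CPM in any library. Libraries held 37268242 to 56618266 counts. Levels are given as CPM, counts scaled by library total and TMM factor, and 1 CPM rested on 37.2 to 56.9 reads. Opa1 itself was 102 ± 17.3 CPM in WT and 40.6 ± 6.30 CPM in Opa1cKO (SD, n = 6 each), a log2 fold change of -1.22 (SE 0.116) with an adjusted p of 3.05e-05 by edgeR's quasi-likelihood test, and the genotypes did not overlap. Labelled sex, a term of the fit, was unbalanced between genotypes. The labels gave 4 female and 2 male WT mice, and 2 female and 4 male Opa1cKO mice. In 4 libraries, WT 4, WT 5, WT 6 and Opa1cKO 4, reads of Xist and of Y-linked genes contradicted the labelled sex. Where the call or sign of an identity gene changed without those libraries, both values are given below, and for lists of related genes the counts. No pair of libraries agreed within counting noise (66 pairs, smallest chi-square per degree of freedom 33.3).

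Of the 15229 genes tested for genotype, 1558 were called at an adjusted p below 0.05, or 10.2%. The genes lower in Opa1cKO were 5.13% of those tested and the genes higher were 5.1%. Among the identity genes, Cdh2 alone passed and was lower, 1 of 10 against that 5.13%, and none was higher, where DESeq2 also called none. At an unadjusted p below 0.05, there were 3 of the 10 genes, Cdh2, Cd24a and Foxa2, beside 25.2% of all tested genes (3845), so that count is near the background. The median log2 fold change over the 10 genes was 0.01, beside 0.01 over all tested genes. Without the 4 libraries in doubt no identity gene was called, and over all genes 188 were called higher and 137 lower. The WT libraries left, WT 1, WT 2 and WT 3, are all labelled female. With the sex term, the genotype estimates of that subset rest on them against Opa1cKO 5 and Opa1cKO 6 alone.

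Among the regulators, T is the defining transcription factor of the notochord and gave 2349, 2745 and 3002 CPM as the lowest, median and highest of the WT libraries. The same values in Opa1cKO were 2430, 2916 and 3187 CPM. The ranges overlapped almost wholly, and the spread within a genotype was small, with a coefficient of variation of 9.00% in WT and 9.51% in Opa1cKO. For T the log2 fold change was 0.06 (SE 0.108, adjusted p = 0.781 by edgeR), and its 95% interval from -0.17 to 0.29 leaves room for small differences in either direction. Without the 4 libraries in doubt the estimate was -0.12. T lies at chr17:8434423-8442496 on the plus strand (mm10), and no other transcript of the annotation carried a near-identical stretch of it.

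Foxa2, a forkhead factor of node, notochord and floor plate, gave 3.72, 6.59 and 11.1 CPM as the lowest, median and highest WT values. In Opa1cKO it gave 1.17, 2.83 and 7.26 CPM. The highest Opa1cKO value belonged to Opa1cKO 5, and the other 5 Opa1cKO libraries, at 1.17 to 3.22 CPM, lay below every WT library. The log2 fold change was -1.08 (SE 0.397, 95% interval -1.93 to -0.22), the largest in size of the 10 genes, but it did not pass over all genes (adjusted p = 0.106 by edgeR). The call depended on 1 library and on the tool. Without Opa1cKO 5 the log2 fold change was -1.82 with an adjusted p of 0.00434 by edgeR. With all libraries, DESeq2 gave an adjusted p of 0.0365 and limma-voom 0.0449, and over 29 alternatives the estimate was below 0 in all 29, with adjusted p-values from 0.00434 to 0.679 and a call in 5.

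Foxa1, its paralogue, was expressed at a similar level, with 5.23, 7.78 and 8.75 CPM as the lowest, median and highest WT values and 3.44, 5.75 and 6.86 CPM in Opa1cKO. The ranges overlapped, and the log2 fold change was -0.40 (SE 0.210, 95% interval -0.85 to 0.05, adjusted p = 0.256 by edgeR). It was called in 0 of 29 alternatives and lay below 0 in all 29.

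Shh, the secreted ligand of the notochord, had few reads. The lowest, median and highest values were 0.391, 0.519 and 1.20 CPM in WT and 0.188, 0.910 and 1.89 CPM in Opa1cKO. The Opa1cKO libraries included both the lowest and the highest value of the 12. The log2 fold change of 0.21 had an SE of 0.511 and a 95% interval from -0.88 to 1.31 (adjusted p = 0.840 by edgeR), so differences inside that interval could not be told from the spread between these mice. Transcripts of 2 antisense genes overlap Shh (chr5:28456815-28467256, minus strand, mm10), of which 9530036O11Rik had 54 counts over all libraries. The sources used here do not state whether the counting used strand.

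**Figure D1:**
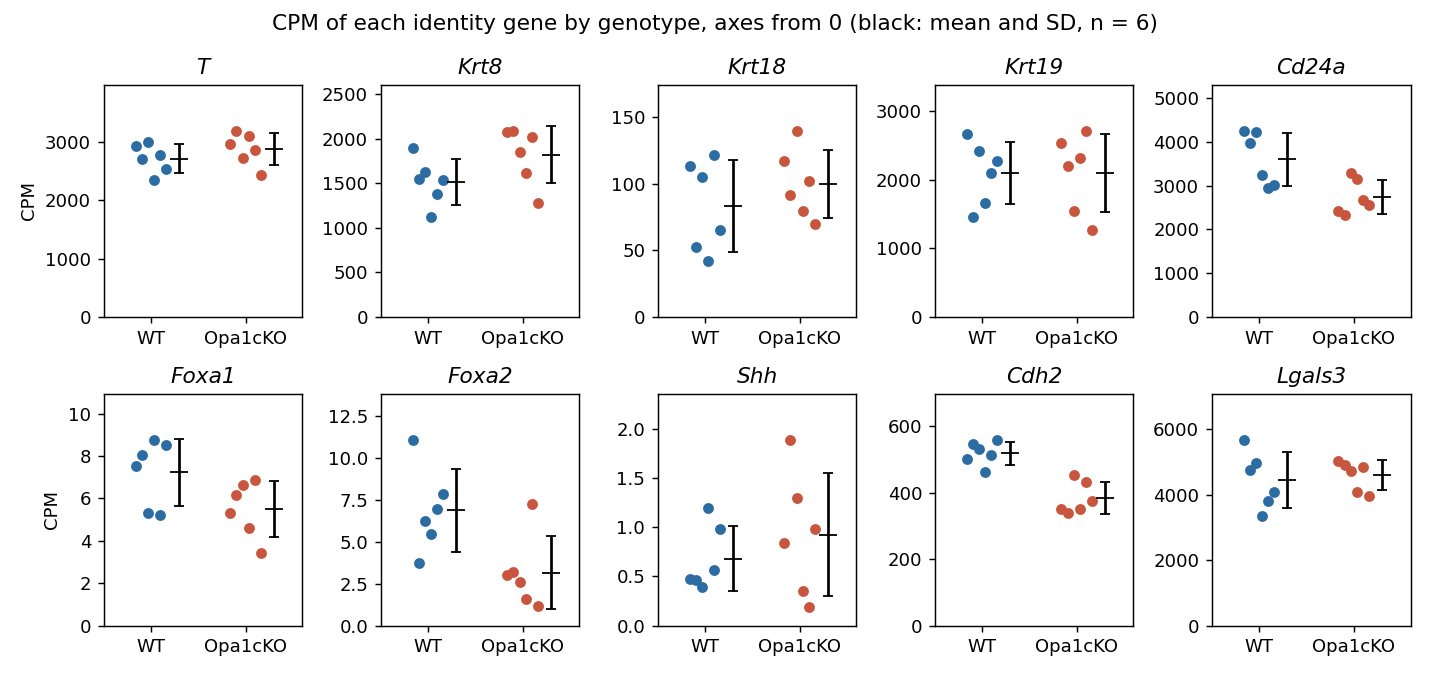
CPM of the 10 identity genes by genotype, 1 panel per gene with its own axis from 0. Each point is 1 mouse and black marks give the mean and SD (n = 6); Cdh2 is the gene whose WT libraries (463 to 559 CPM) all lie above the Opa1cKO libraries (338 to 454 CPM), and Foxa2 in Opa1cKO 5 stands at 7.26 CPM, above the other Opa1cKO libraries.

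Among the structural and surface genes, Cdh2 encodes N-cadherin, which joins neighbouring cells and binds catenins inside them. Its lowest, median and highest values were 463, 522 and 559 CPM in WT and 338, 363 and 454 CPM in Opa1cKO. Every WT library lay above every Opa1cKO library, which was so for 6.41% of all tested genes. The log2 fold change was -0.43 (SE 0.0982, 95% interval -0.64 to -0.22, adjusted p = 0.0137 by edgeR), so Cdh2 was 1.35-fold lower in Opa1cKO. It was below 0 in all 29 alternatives and was called in 24, with adjusted p-values from 0.000529 to 0.273. Among the alternatives without a call, leaving out WT 6 gave -0.38 (adjusted p = 0.0621 by edgeR). Leaving out the 4 libraries in doubt gave -0.38 (adjusted p = 0.243 by edgeR), also without a call. With all libraries and sex taken from the reads, Cdh2 was -0.41 and called (adjusted p = 0.0174 by edgeR). Schwann cells also express Cdh2; the sum of 5 of their markers was 18.8 to 27.9 CPM in WT and 23.7 to 31.2 CPM in Opa1cKO, none of the 3 tested passed, and Sox10 had 1 read in all 12 libraries.

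Cd24a, a small glycoprotein anchored in the membrane of nucleus pulposus cells, gave 2934, 3615 and 4239 CPM as the lowest, median and highest WT values and 2333, 2609 and 3280 CPM in Opa1cKO. The ranges overlapped between 2934 and 3280 CPM. The log2 fold change was -0.34 (SE 0.143, 95% interval -0.64 to -0.03), which did not pass over all genes (adjusted p = 0.154 by edgeR). It was called in 0 of 29 alternatives and below 0 in all 29. The 4 WT libraries labelled female averaged 3921 CPM and the 2 labelled male 2968 CPM. In Opa1cKO these means were 2609 and 2796 CPM. The genotype by labelled sex term did not pass (adjusted p = 0.797 by edgeR). By sex-linked reads, WT 5, WT 6 and Opa1cKO 4, labelled male, were female, and WT 4, labelled female, was male. The WT mean labelled male thus held no library that was male by its reads.

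Lgals3 encodes galectin-3, a lectin found in the cytoplasm and nucleus and outside cells. It gave 3361, 4421 and 5670 CPM as the lowest, median and highest WT values and 3957, 4778 and 5041 CPM in Opa1cKO. All Opa1cKO libraries fell inside the WT range. Its log2 fold change was 0.08 (SE 0.145, 95% interval -0.23 to 0.39, adjusted p = 0.781 by edgeR), and without the 4 libraries in doubt it was -0.22. Macrophages also express Lgals3. Of 10 macrophage markers, 5 were tested. Cd68 was higher, and Cd163 and Csf1r were lower, beside 5.1% higher and 5.13% lower of all tested genes. The sum of the 10 ranged over 105 to 197 CPM in WT and 97.2 to 118 CPM in Opa1cKO. Csf1r made up most of the sum of the 10, with means of 116 CPM in WT and 66.2 CPM in Opa1cKO. The pan-leukocyte marker Ptprc had a mean of 0.263 CPM in WT and of 0.211 in Opa1cKO, with 1.06 CPM in WT 2. The means of C1qa, C1qb and C1qc were each under 0.1 CPM in both genotypes. In single libraries they reached at most 0.217 CPM (C1qc in WT 5).

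The keratins showed no called difference. Krt8, the type II chain, gave 1117, 1541 and 1893 CPM as the lowest, median and highest WT values and 1279, 1936 and 2083 CPM in Opa1cKO. The ranges overlapped, with 3 Opa1cKO libraries above every WT library, and the log2 fold change was 0.24 (SE 0.158, 95% interval -0.10 to 0.58, adjusted p = 0.369 by edgeR). Without the 4 libraries in doubt it was -0.03. Of the Krt8 transcript, 51.8% has a near-identical stretch (95% identity or more) in Krt8-ps or in the antisense gene Gm36026, and Gm36026 took 21259 counts over all libraries.

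Krt19, a type I chain, gave 1463, 2187 and 2665 CPM in WT and 1268, 2260 and 2707 CPM in Opa1cKO. The group ranges nearly coincided and the log2 fold change was -0.04 (SE 0.211, 95% interval -0.49 to 0.42, adjusted p = 0.941 by edgeR). Krt18, the other type I chain, gave 41.8, 85.1 and 122 CPM in WT and 70.0, 96.7 and 139 CPM in Opa1cKO. It was the most variable of Krt8, Krt18 and Krt19 in WT, with a coefficient of variation of 41.1%, and its log2 fold change was 0.17 (SE 0.282, 95% interval -0.45 to 0.78, adjusted p = 0.764 by edgeR), or -0.06 without the 4 libraries in doubt.

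**Figure D2:**
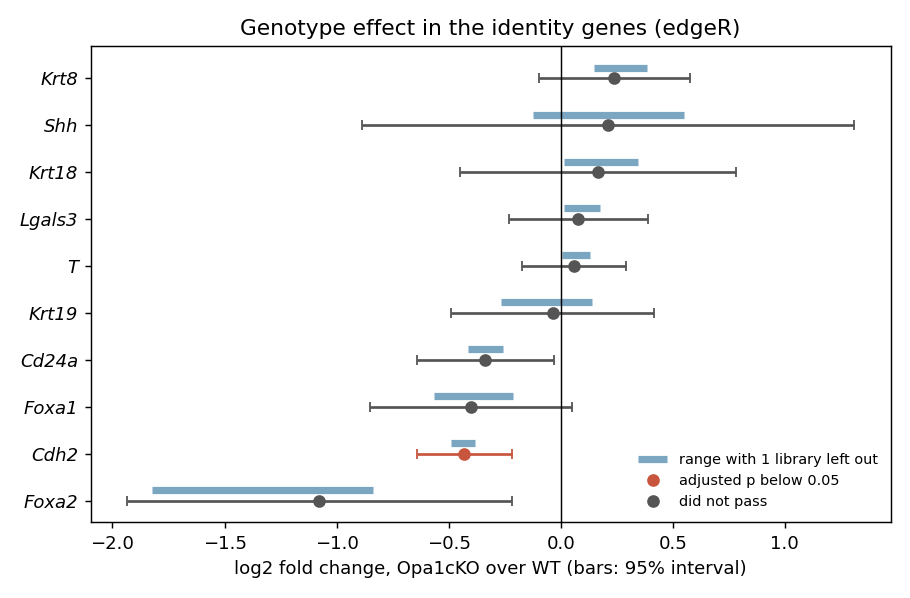
Log2 fold changes (Opa1cKO over WT) of the 10 identity genes from edgeR, with 95% confidence intervals as thin bars and the range with 1 library left out as thick bars. Cdh2 at -0.43 is the gene that passed over all tested genes; the intervals of Cd24a and Foxa2 also leave out 0 but their adjusted p-values were 0.154 and 0.106.

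Neither labelled sex nor its interaction with genotype was called for any identity gene or any other of the 15229 genes by edgeR (0% in both cases). At an unadjusted p below 0.05 there were 899 genes for the interaction and 586 for labelled sex, and 0 of the 10 identity genes for either. The adjusted p-values of the 10 genes ran from 0.797 to 0.995 for the interaction and from 0.961 to 0.999 for labelled sex. Without Opa1cKO 5, 22 genes were called for the interaction, 0 of them identity genes. These terms follow labels that the sex-linked reads of 4 libraries contradict.

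Levels per transcript length were read from the deposited TPM values. The identity genes together took 2.73% to 3.62% of all TPM in WT and 2.71% to 3.47% in Opa1cKO. In WT, Lgals3 was highest at 10825 ± 1674 TPM (SD, n = 6), ranking 4 of 32128 symbols. Cd24a at 6341 ± 936, T at 5339 ± 378, Krt19 at 5124 ± 978 and Krt8 at 3507 ± 460 TPM followed. Lgals3 lay above all of these in every WT library, while neighbours in the order from Cd24a to Krt8 overlapped between libraries, and T and Krt19 changed places when medians were used. T, although a transcription factor, ranked 9 of the 32128 symbols in WT.

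A second group lay well below these in every WT library, with Cdh2 at 293 ± 18.3 TPM and Krt18 at 262 ± 105 TPM, which overlapped. Foxa2 at 13.1 ± 4.25 TPM and Foxa1 at 9.91 ± 2.26 TPM also overlapped, and Shh was lowest at 1.10 ± 0.572 TPM. In Opa1cKO the order of Cdh2 and Krt18 was turned, at 219 ± 23.4 and 319 ± 74.6 TPM. Their Opa1cKO ranges, 197 to 250 TPM for Cdh2 and 235 to 431 TPM for Krt18, still overlapped.

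**Figure D3:**
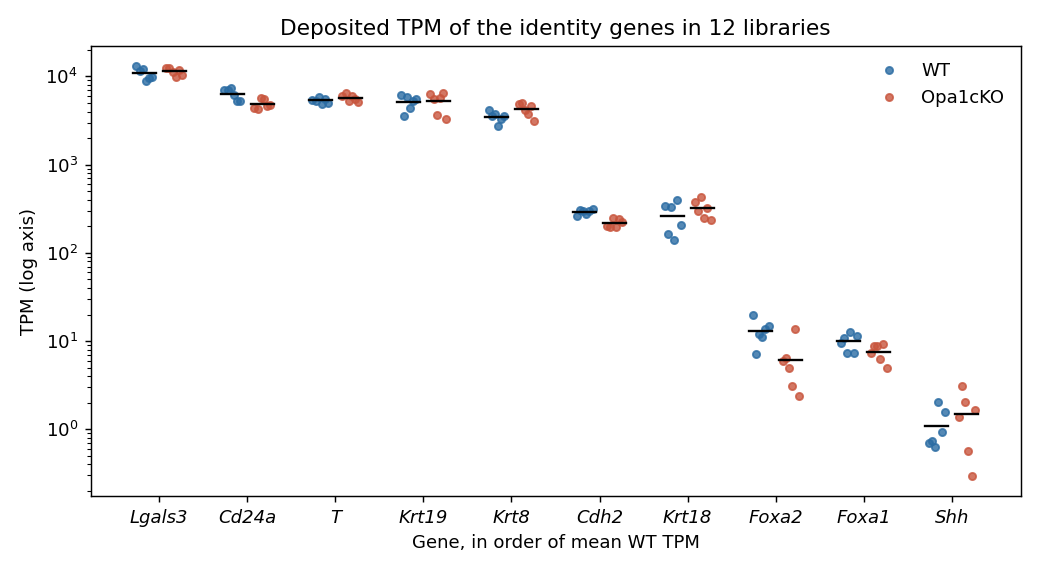
Deposited TPM of the 10 identity genes in each library on a log axis, ordered by mean WT level. Points are mice, coloured by genotype, and bars are group means; the genes fall into a high group from Lgals3 (10825 TPM in WT) to Krt8 (3507), a middle pair of Cdh2 and Krt18, and the factors and ligand Foxa2, Foxa1 and Shh at 13.1 TPM and less.

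Among the keratins, the type II chain Krt8 and the type I chains were of the same order in TPM only when Krt19 was counted. The ratio of Krt8 to Krt18 was 8.30, 14.8 and 21.7 as the lowest, median and highest of WT, and 9.78, 13.9 and 16.8 in Opa1cKO. The ratio of Krt8 to the sum of Krt18 and Krt19 had a median of 0.617 in WT (0.576 to 0.955) and 0.792 in Opa1cKO (0.630 to 1.02). Both ratios overlapped between genotypes. Krt8 and Krt18 are neighbours on chr15, with gene starts 23698 bases apart. Of other keratins, Krt80 was 283 ± 26.0 TPM in WT, close to Krt18, and Krt7 was 31.3 ± 7.95 TPM.

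Krt5 and Krt14, the keratins of basal skin cells, were at 0 or near 0 in both genotypes (at most 0.0191 TPM on average). The sum of 10 keratinocyte markers was nevertheless 21.9 to 33.8 CPM in WT and 36.7 to 74.9 CPM in Opa1cKO, with no overlap. Of the 5 markers tested, Dmkn and Krtdap were higher, beside 5.1% of all tested genes. The part of keratinocyte markers in the keratin values was not tested.

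Within a library, the ratio of a gene to T does not depend on how libraries are scaled. The log2 ratio of Cdh2 to T was -2.55 to -2.18 in WT and -3.24 to -2.59 in Opa1cKO, with no overlap, a mean difference of -0.53 (two-sided exact permutation test over 924 splits, p = 0.00216, the smallest this design allows; adjusted over 11 ratios p = 0.0238). The ratio of Cd24a to T was lower by a mean log2 difference of -0.48 (exact permutation p = 0.00866, adjusted p = 0.0397). That of Foxa2 to T was lower by -1.34 (exact permutation p = 0.0108, adjusted p = 0.0397). Both ranges overlapped between genotypes. These tests had no sex term, although labelled sex was unbalanced, and were not repeated without the 4 libraries in doubt. In the fit with labelled sex, Cd24a and Foxa2 did not pass (adjusted p = 0.154 and 0.106 by edgeR).

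With 1 mouse left out, the mean differences stayed of similar size, from -0.59 to -0.46 for Cdh2, -0.55 to -0.40 for Cd24a and -1.62 to -1.16 for Foxa2, while calls were lost. The Cdh2 ratio, at -0.49, lost its call without WT 6 (exact permutation, adjusted p = 0.0595). The Cd24a ratio lost it without any 1 of WT 1, WT 3, WT 4, WT 6, Opa1cKO 1, Opa1cKO 2, Opa1cKO 4 and Opa1cKO 6. The Foxa2 ratio lost it without any 1 library except WT 2 and Opa1cKO 5, with adjusted p-values up to 0.0714 in the exact permutation tests of both. The direction stayed below 0 in all 14 alternatives of each of the 3 ratios. The remaining ratios did not pass, with mean log2 differences of -0.48 for Foxa1 to T, 0.18 for Krt8 to T, 0.26 for Krt18 to T, -0.11 for Krt19 to T, 0.14 for Shh to T, -0.02 for Lgals3 to T, -0.08 for Krt8 to Krt18 and 0.28 for Krt8 to Krt19.

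**Figure D4:**
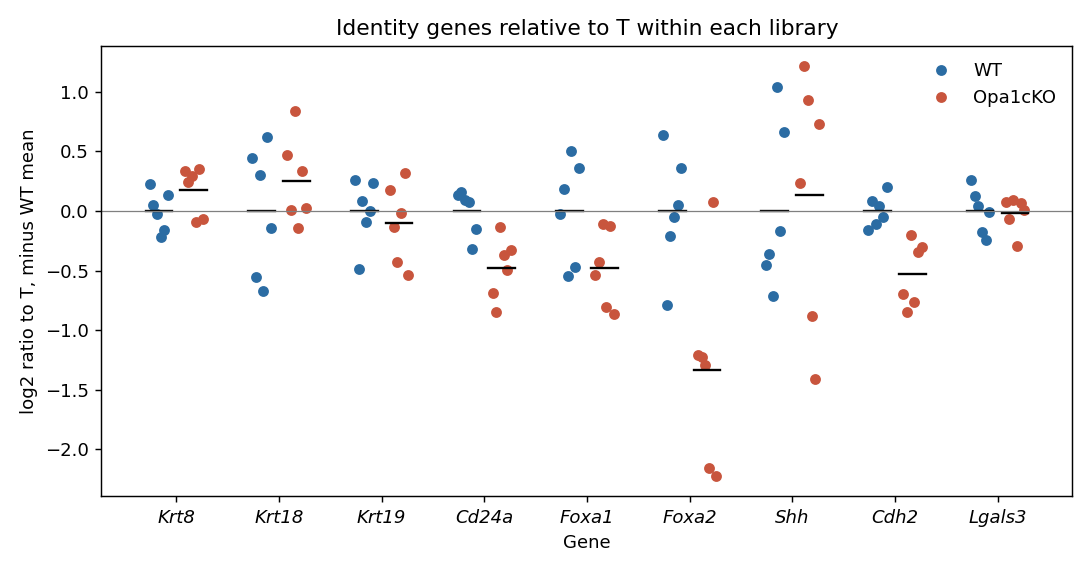
Log2 ratio of each other identity gene to T within each library, with the WT mean of that ratio subtracted. Points are mice, coloured by genotype, and bars are group means; the Cdh2 ratio separates the genotypes with a mean difference of -0.53, while the ratios of Lgals3, Shh and the keratins overlap.

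Among the mice of a genotype, Opa1cKO 6 had the lowest value of its genotype for 7 of the 10 genes, among them T, Krt8, Krt18, Krt19 and Lgals3. WT 4 had the lowest WT value for 5 of the 10. The sum of 8 chondrocyte markers was 1064 CPM in Opa1cKO 6, against 204 to 450 CPM in the other Opa1cKO libraries, and 459 CPM in WT 4, the highest of the WT libraries (194 to 459 CPM). Col11a1 made up most of that sum, at 970 CPM in Opa1cKO 6. In bulk tissue, fewer cells of a type and less RNA per cell cannot be told apart, and the part of other cell types in these values was not tested.

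Correlations were computed for 6 pairs on log2 values centred within genotype (n = 12 libraries, permutation p-values adjusted over the 6 pairs). Krt8 and Krt18 gave r = 0.61 (permutation p = 0.0384, adjusted 0.0767) and rho = 0.55 (permutation p = 0.0686). Krt8 and Krt19 gave r = 0.69 (permutation p = 0.0209, adjusted 0.0626) and rho = 0.64 (permutation p = 0.0401). T and Krt19 gave r = 0.70 (permutation p = 0.0188, adjusted 0.0626) and rho = 0.52 (permutation p = 0.105). None of the 6 passed after adjustment. Without the 2 libraries farthest from the median of the first gene, Opa1cKO 6 and WT 4 in each case, r was 0.22, 0.38 and 0.43, although leaving out the extremes of one gene narrows its range. With 1 library left out, r ran from 0.42 to 0.76 for Krt8 and Krt18, from 0.49 to 0.79 for Krt8 and Krt19 and from 0.53 to 0.78 for T and Krt19. All 3 pairs passed without Opa1cKO 2 (permutation, adjusted p = 0.0484), the first also without WT 5 (0.0263) and the other two also without WT 2 (0.0202).

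The other pairs had lower coefficients in size. Foxa1 and Foxa2 gave r = 0.48 (permutation p = 0.142) and rho = 0.45 (permutation p = 0.168), with r = 0.34 after leaving out the 2 farthest libraries. Foxa2 and Shh gave r = -0.23 (permutation p = 0.559) and rho = -0.02 (permutation p = 0.960), turning to 0.30 without the 2 farthest. T and Shh gave r = -0.33 (permutation p = 0.340) and rho = -0.27 (permutation p = 0.439), and -0.12 without the 2 farthest. Without Opa1cKO 2, the T and Shh pair gave r = -0.70 (permutation, adjusted p = 0.0484), and over the 6 WT libraries alone r was -0.94, a value chosen after it was seen and not tested.

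The genes whose log2 CPM, centred within genotype, followed each identity gene most closely over the 12 libraries are given as likeness alone. They were Akt2 for T (r = 0.93), Cutal for Krt8 (0.94), Tmem218 for Krt18 (0.89), Cyba for Krt19 (0.98) and Nxt2 for Cd24a (0.91). For the others they were Vps33a for Foxa1 (0.94), Nradd for Foxa2 (0.94), Nanos1 for Shh (0.90), Cyp1b1 for Cdh2 (0.89) and Phb for Lgals3 (0.92). Each is the highest among named genes of 1 CPM or more on average. Genes of mitochondrial DNA, Xist, Tsix and the Y-linked genes read for sex were left out. The likeness itself was not tested. By genotype, Cutal (log2 fold change -1.44, adjusted p = 0.0135) and Cyp1b1 (-1.39, adjusted p = 0.00320) were called lower by edgeR and the other 8 were not called.

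In the hedgehog pathway, which Shh activates, 4 of 18 tested genes were higher by edgeR. Over all tested genes 5.1% were higher, 5.13% were lower and 6.41% had no overlap between genotypes. These shares are the background for this list and the lists that follow, and no list was tested as a set. Dhh, another hedgehog ligand, was 0.0572 ± 0.0637 CPM in WT and 0.657 ± 0.273 CPM in Opa1cKO, from 1 to 8 reads per WT library and 8 to 45 per Opa1cKO library, with no overlap in CPM (log2 fold change 3.65, SE 0.607, adjusted p = 0.00219 by edgeR). Its fold change rests on few reads and was 4.25 on the log2 scale without WT 2. Gpr161, a receptor of the primary cilium that restrains the pathway, rose from 3.19 to 5.41 CPM (log2 fold change 0.82, adjusted p = 0.00898 by edgeR), and Kif7, a ciliary kinesin that acts on the Gli factors, from 9.28 to 13.5 CPM (0.55, adjusted p = 0.0248 by edgeR). Kif7 lost its call without WT 6 (adjusted p = 0.0646 by edgeR) and without Opa1cKO 6 (0.133). Evc2, a ciliary protein named after its values were seen because it completes the 4, was the weakest (adjusted p = 0.0394 by edgeR) and was called in 13 of 29 alternatives. The pathway's usual readouts did not pass, with Ptch1 at 83.4 and 91.4 CPM and Gli1 at 0.952 and 1.05 CPM in WT and Opa1cKO. Hhip and Ihh were too low to be tested.

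Among notochord and sclerotome regulators, 1 of 10 tested genes was lower by edgeR. Foxj1, which switches on the genes of motile cilia and is active in the node, gave 13.7 to 29.1 CPM in WT and 5.47 to 11.7 CPM in Opa1cKO, with no overlap (log2 fold change -1.68, SE 0.233, adjusted p = 0.000804). It was called in 28 of 29 alternatives and was lower in all 29. Noto, which acts upstream of Foxj1 in the node, was too low to be tested, at 0.213 CPM in WT and 0.101 CPM in Opa1cKO. Pax9 and Sox6 did not pass, and Sox9, the cartilage and notochord factor, had a log2 fold change of 0.20 (adjusted p = 0.362 by edgeR).

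Other markers used for the nucleus pulposus went in both directions, with 1 of 13 tested genes higher and 4 lower. The carbonic anhydrase Car9 fell from 95.3 ± 13.9 to 32.9 ± 8.95 CPM (SD, n = 6; log2 fold change -1.58, adjusted p = 0.000310 by edgeR). The glucose transporter Slc2a1 fell from 1950 ± 286 to 1078 ± 128 CPM (-0.78, adjusted p = 0.000839 by edgeR). Hif1a, the oxygen-regulated factor under which both are usually placed, rose from 293 ± 18.8 to 430 ± 46.2 CPM (0.58, adjusted p = 0.00130 by edgeR). Sema3c and Cd55, named after their values were seen as the remaining 2 of the 4, were also lower, Cd55 losing its call without WT 5, WT 6 or Opa1cKO 1 (highest adjusted p = 0.0716 by edgeR). The median log2 fold change of the 13 was 0.58, which is the value of Hif1a, although most of the called genes were lower. No gene above that median was called. Among them Foxf1, Foxf2, Aqp1 and Basp1 were low, at 0.249, 0.428, 1.02 and 2.76 CPM in WT. Vcan (50.0 CPM in WT) and Ccn2 (34.2 CPM, adjusted p = 0.0512 by edgeR) were higher in level. Car12, Sema3a and Tek were too low to be tested. Car3, the most abundant of the list, was 28954 CPM in WT and 30376 CPM in Opa1cKO and did not pass.

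Among keratin partners and desmosomal genes, 1 of 16 tested was higher and 2 were lower. The plakin Evpl, a linker between keratin filaments and the cell border, rose from 8.12 to 16.4 CPM (log2 fold change 1.15, adjusted p = 0.00733 by edgeR), while its partner Ppl fell from 4.61 to 1.77 CPM (-1.15, adjusted p = 0.0115 by edgeR). Pkp2 fell from 130 to 91.7 CPM (-0.50, adjusted p = 0.0262 by edgeR), but lost its call without WT 6, Opa1cKO 1 or Opa1cKO 6 (highest adjusted p = 0.0971). Desmoplakin (Dsp), which anchors keratins at the desmosome, was 1569 CPM in WT and 1422 CPM in Opa1cKO and did not pass.

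In the cadherin and catenin list, from which Cdh2 was kept apart, 2 of 13 tested genes were lower and 1 was higher. Cdh4 (R-cadherin), a classical cadherin closely related to N-cadherin, gave 45.6 to 115 CPM in WT and 3.53 to 27.5 CPM in Opa1cKO, with no overlap (log2 fold change -2.40, SE 0.511, adjusted p = 0.0143 by edgeR). Without Opa1cKO 5, its highest Opa1cKO library, the log2 fold change was -3.26. Ctnna2, an alpha-catenin that ties cadherins to actin, fell from 5.04 to 1.24 CPM (-1.93, adjusted p = 0.0102 by edgeR), and the adhesion molecule Nectin3 rose from 53.5 to 66.9 CPM (0.30, adjusted p = 0.0133 by edgeR). Nectin3 lost its call without WT 5 (adjusted p = 0.0561) or Opa1cKO 6 (0.0545). Beta-catenin (Ctnnb1) was 342 and 319 CPM and did not pass, and Cdh1, the cadherin of epithelia, was under 0.05 CPM.

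Of the galectins, 6 were tested, 2 were higher and 1 was lower. Lgals1 fell from 174 to 89.8 CPM (log2 fold change -1.02, adjusted p = 0.00365 by edgeR), Lgals4 rose from 6.14 to 10.5 CPM (0.81, adjusted p = 0.00503 by edgeR), and Lgalsl, a galectin-related protein, rose from 112 to 178 CPM (0.72, adjusted p = 0.0104 by edgeR), a call lost without Opa1cKO 6 (adjusted p = 0.0600 by edgeR). Relatives of T and of the Foxa factors gave 2 lower of 12 tested. Foxo3 fell from 154 to 117 CPM (-0.45, adjusted p = 0.00532 by edgeR) and Foxo1 from 103 to 69.3 CPM (-0.58, adjusted p = 0.00615 by edgeR), both with no overlap. Foxd1 missed the threshold, at 66.9 and 50.4 CPM (adjusted p = 0.0683 by edgeR). Foxa3, the remaining Foxa gene, was under 0.03 CPM in both genotypes. Without the 4 libraries in doubt, 3 genes of the 7 lists were called, all lower, against 9 higher and 12 lower with all libraries.

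**Figure D5:**
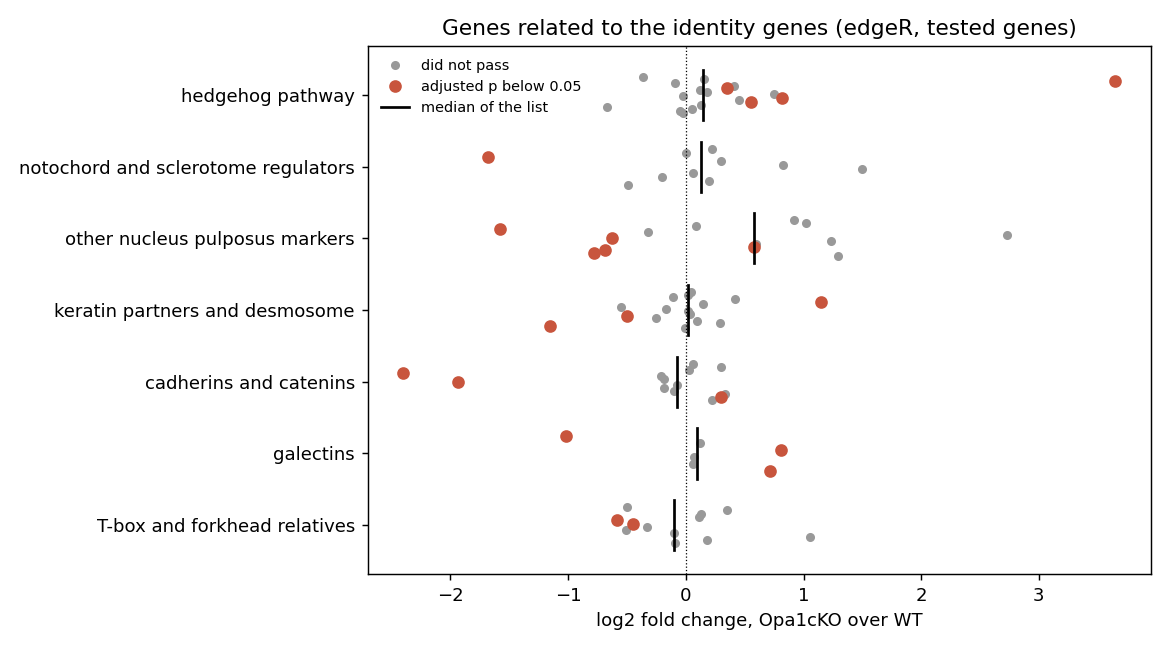
Log2 fold changes (Opa1cKO over WT, edgeR) of the tested genes of 7 lists related to the identity genes. Each point is a gene, coloured where its adjusted p was below 0.05, and the bar is the list's median; Dhh (3.65), Cdh4 (-2.40) and Foxj1 (-1.68) lie farthest out among the called genes of their lists.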

How the data were processed

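Tail nucleus pulposus of 12 mice (6 WT, 6 Opa1cKO) was sequenced from 50 ng of RNA with a stranded kit that removes ribosomal RNA and 14 PCR cycles, per the labels' protocols. Reads were aligned with STAR 2.7.11b to mm10, per the submitters' processing notes. The sources used here do not state the counter, its annotation, its strand setting or the tool for TPM. The authors deposited whole-number counts per gene and, in a separate table, TPM. The read depth of each library was taken from its total count, and PCR copies cannot be told from separate molecules.

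The main test was edgeR 4.0.16 in R 4.3.3. Genes were kept by filterByExpr (minimum count 10), scaled by TMM and fitted in a robust quasi-likelihood model with genotype and labelled sex in the 12 libraries. Adjustment was by Benjamini-Hochberg across 15229 genes. In simulated data of those genes, 67, 67 and 66 were changed 1.5-, 2- and 4-fold. The genotype fit recovered 40.3%, 80.6% and 93.9% of them, and 5.92% of its calls were false. The simulated counts held no sex effect, no wrong sex label and no outlying mouse, so these rates need not hold in these data. Alternatives used DESeq2 1.42.0, limma 3.58.1, other scalings, filters, subsets of libraries and TPM. Ratios were tested by exact permutation (Python 3.11.15, scipy 1.17.1) on log2(CPM + 0.1), without a sex term. Positions and near-identical copies came from the GENCODE M21 annotation of mm10.

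The identity genes, gene lists and tests were chosen with earlier results of these data known. Named genes were the 10 identity genes, Opa1, up to 3 tested genes per list by smallest p, and the genes most like each identity gene; exceptions are stated. Each library is a different mouse, so p-values measure the spread between mice.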

Additional observations from a re-analysis of the deposited data

Results flagged for a closer look

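Values far from the other 5 libraries of their genotype were looked for in 94 groups of 6 (Dixon's test, critical value 0.625), and 13 were found. Chance flags about 1 in 20 groups. Among the identity genes this was Foxa2 in Opa1cKO 5, at 7.26 CPM against at most 3.22 CPM in the other Opa1cKO libraries.

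Among related genes, Foxo1 was 135 CPM in WT 6 (next highest 100.4), Lgalsl 143.5 CPM in WT 2 (next 116), and Sema3c 229 CPM in WT 2 (next 176). Pax9, a sclerotome factor, was 0.803 CPM in WT 3 (next 0.334) and 2.04 CPM in Opa1cKO 6 (next 0.721).

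Among summed marker levels, chondrocyte markers were 1064 CPM in Opa1cKO 6 (next 450.1). Neutrophil markers were 10.3 CPM in WT 2 (next 0.564) and 4.63 CPM in Opa1cKO 6 (next 1.78). Erythroid markers were 2.41 CPM in WT 2 (next 0.376) and adipocyte markers 1.01 CPM in Opa1cKO 4 (next 0.304). Skeletal muscle markers were 16.6 CPM in WT 5 (next 4.75) and 17.5 CPM in Opa1cKO 4 (next 6.91).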

How the results depend on the processing

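Of 289 alternative values for the 10 identity genes, 263 kept their direction and side of the threshold, 5 lost a call, 5 gained one and 16 changed sign. The cause was not tested. Without the 4 libraries in doubt, 188 genes were called higher and 137 lower, 0 identity genes lower, and 0 higher and 3 lower in the related lists; Lgals3 became -0.22, Krt8 -0.033, Krt18 -0.065 and T -0.12. With labelled females alone the counts were 167 and 133 (identity genes 0 lower, lists 0 and 4), with Shh at -0.094, Lgals3 at -0.087 and T at -0.048. With labelled males alone they were 161 and 258 (lists 2 and 4). At an adjusted p below 0.01 they were 228 and 326 (identity genes 0 lower, lists 5 and 7). DESeq2 called 1189 genes higher, and DESeq2, limma-voom and limma-voom with quality weights each called 2 identity genes lower. With sex taken from the reads, Shh was -0.068, Krt19 0.050 and 6 genes were called for sex; with quality weights Krt19 was 0.049.

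Leaving out 1 library gave 323 to 1002 genes higher and 496 to 1008 lower (323 and 496 without Opa1cKO 6, 463 and 510 without WT 6), 0 to 2 identity genes lower (0 without WT 6, 2 without Opa1cKO 5), 5 to 11 list genes higher (5 without Opa1cKO 6) and 10 to 16 lower, 0 to 22 genes for the interaction (22 without Opa1cKO 5), 0 to 2 for labelled sex, 0 to 4 ratios and 0 to 4 pairs. Krt19 ran from -0.27 to 0.14, Shh from -0.12 to 0.55, and the ratio differences from -0.068 to 0.036 for Lgals3 to T, -0.23 to 0.042 for Krt8 to Krt18 and -0.080 to 0.45 for Shh to T. The correlation of Foxa2 and Shh ran from -0.42 to 0.28.

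With the replicate number as a block, 1269 genes were called and Foxa2 was -1.28 (adjusted p = 0.0650 by edgeR). Libraries of the same number did not vary together (r from -0.33 to 0.13, own number the best partner in 0 of 6), so the numbers were not read as pairs.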
